A study of Mus musculus with 28 samples.

Results

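Opioid signalling in the hippocampus is described here through 8 genes: the peptide precursors Penk, Pdyn, Pomc and Pnoc, and the receptors Oprm1, Oprd1, Oprk1 and Oprl1. They were chosen by name as the array features that carry 1 of these symbols alone, and all 8 were found among the 19938 genes measured, each by 1 probe set (a group of short array sequences read as 1 value). The probe sets are 10511363 for Penk, 10487613 for Pdyn, 10394240 for Pomc, 10420853 for Pnoc, 10367546 for Oprm1, 10516852 for Oprd1, 10344653 for Oprk1 and 10479685 for Oprl1.

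Opioid peptides are cut from larger precursor proteins: proenkephalin (Penk) gives the enkephalins, prodynorphin (Pdyn) the dynorphins, proopiomelanocortin (Pomc) beta-endorphin together with stress hormone and melanocortin peptides, and prepronociceptin (Pnoc) nociceptin. They act on G protein-coupled receptors that inhibit adenylyl cyclase and dampen neuronal firing and transmitter release. In the hippocampus dynorphin is stored in granule cells of the dentate gyrus, enkephalin in some of their inputs and in interneurons, and seizures are known to alter the expression of both precursors.

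The study measured RNA of mouse hippocampus on 28 arrays, with values given as log2 signals, so that a difference of 1 is a doubling. All mice are labelled C57BL/6J and female. The young mice, labelled 10 weeks old, were wild type, fosB-null (the label gives the genotype as G/G) or fosB d/d (labelled as lacking the FosB protein), and each genotype had received saline or KA (kainate, an excitatory glutamate receptor agonist that causes seizures), with 3 arrays in each of these 6 groups. The aged mice, 64.7 to 71.0 weeks old and with no treatment in their labels, gave 3 arrays of wild type, 2 of fosB d/d, and for fosB-null 3 from mice labelled with epilepsy and 2 from mice without it. FosB is a transcription factor of the AP-1 family that neurons make when they are active. The sources used here do not give the time from KA to sampling. Arrays are labelled biological replicates, and whether each is 1 animal is not stated further.

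The labels conflict in places. For fosB d/d after saline, the source name mentions kainate but titles and treatment labels say saline, and these arrays were taken as saline. One protocol gives 14 months of age for every mouse. Despite the female label, the Y-linked gene Eif2s3y lay at 9.69 to 10.50 on the 18 young arrays and at 3.96 to 4.55 on the 10 aged arrays, and Xist, which is expressed from the inactive X, at 5.81 to 9.55 and 12.08 to 12.97, so sex and age cannot be told apart. Fosb, the targeted gene, overlapped between wild type and each mutant on the young arrays. It read 7.78 to 8.68 on the 6 young fosB-null arrays, 8.28 to 9.04 on the 6 of wild type and 8.79 to 9.55 on the 6 of fosB d/d. In aged mice it read 9.36 to 9.85 in wild type and 9.80 to 9.81 in fosB d/d. Aged fosB-null arrays read 8.23 to 9.64 with epilepsy, overlapping wild type, and 8.54 to 8.76 without it, below wild type. Where its probes lie against the altered part of the gene is not stated, so its signal was taken as no check of these labels. Markers of the tissue were high: Prox1, a granule cell marker, lay at 10.62 to 11.50 and Neurod6, a pyramidal cell marker, at 10.81 to 11.88 over the 28 arrays.

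The deposited arrays also differed in overall level. Replicate 1 of the 6 young groups had array medians of 8.07 to 8.11 (set 1). Replicates 2 and 3 of both wild type groups and of the mutant saline groups had medians of 8.33 to 8.43 (set 2), and replicates 2 and 3 of the mutant KA groups 8.05 to 8.11 (set 3). These sets were formed after the data were seen. In both mutants KA and saline therefore lie in the same set only for replicate 1. For comparisons in which the median gene shifted by over 0.1, the changes of members are given relative to that median too.

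Penk was the 1 opioid gene whose rise after KA passed the test in wild type hippocampus. It lay at 11.01, 10.81 and 10.66 on the saline arrays and at 11.84, 11.72 and 11.64 on the KA arrays. The groups did not overlap. As deposited, the 3 wild type KA arrays were above each of the other 15 young arrays, the highest of which, fosB d/d KA replicate 1, read 11.39. Once array medians were subtracted, wild type KA replicate 3 (2.79) lay below that array (2.83), while the wild type KA and saline groups stayed apart. Penk rose from 10.82 ± 0.17 (SD, n = 3) to 11.73 ± 0.10, by 0.91 (SE 0.17, 95% interval 0.56 to 1.26; 1.88-fold; limma, Benjamini-Hochberg adjusted p = 0.00419). It was the 1 of 8 members called higher, where 1.62% of all genes tested were, and 0 members were called lower. The median change was 0.10 over the 8 members and 0.01 over all genes. Within set 1 (1 array a group, so with no test) the KA array was 0.83 higher, and within set 2 the mean of 2 was 0.95 higher. In whole tissue, more expressing cells and more RNA per cell cannot be told apart.

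**Figure D1:**
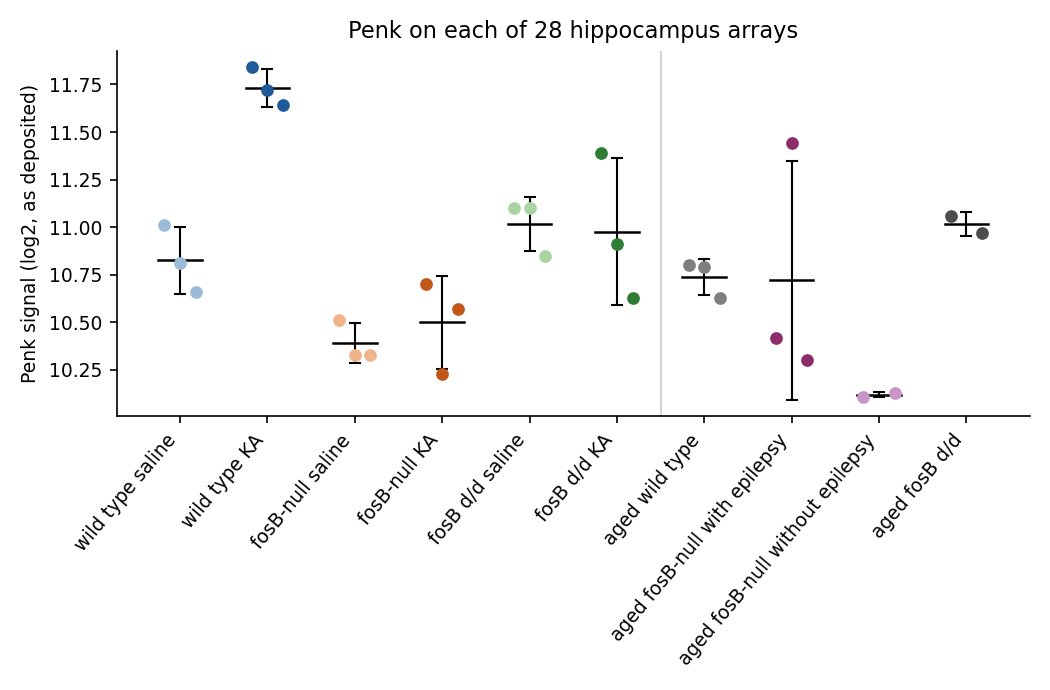
Penk signal (log2, as deposited; the axis does not start at 0) on each of the 28 arrays, by group. Points are arrays, horizontal lines group means and bars SD (n = 3, or 2 in the last 2 groups). The wild type KA arrays (11.64 to 11.84) lie above all other young arrays, and 1 aged fosB-null array with epilepsy reads 11.44.

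In neither mutant did a KA change of Penk pass the test. The fosB-null arrays read 10.51, 10.33 and 10.33 after saline and 10.70, 10.23 and 10.57 after KA, and these groups overlapped. The change was 0.11 (SE 0.17, 95% interval -0.24 to 0.46; limma adjusted p = 0.687), or 0.29 relative to the median gene, which stood at -0.17. The fosB d/d arrays read 11.10, 11.10 and 10.85 after saline and 11.39, 10.91 and 10.63 after KA, again overlapping. The change was -0.04 (SE 0.17, interval -0.39 to 0.31; adjusted p = 0.896), or 0.13 relative to a median of -0.17. Within set 1 the KA array was 0.19 higher in fosB-null and 0.29 higher in fosB d/d, against 0.83 in wild type.

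The difference of the KA response itself was -0.80 for Penk in fosB-null against wild type (SE 0.23, 95% interval -1.29 to -0.30; -0.62 relative to the median gene), with an unadjusted p of 0.0033 and a limma adjusted p of 0.155. In fosB d/d it was -0.95 (SE 0.23, interval -1.44 to -0.45; -0.78 relative to the median), with an unadjusted p of 8.0e-04 and an adjusted p of 0.247. Neither passed the threshold over all 19938 genes. With quantile normalization and array set as a block both did, at -0.74 (adjusted p = 0.0384) and -0.86 (adjusted p = 0.0209), and for the mutants that fit rests largely on replicate 1. It called 219 and 166 of all genes for these differences, against 8 and 3 without it. Of the 8 members, 0 were called for either difference, where 0.0401% and 0.015% of all genes were. At an unadjusted p under 0.05 there were 3 members in each, where 14.9% and 11.7% of all genes were. Both differences share the wild type arrays.

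After KA, Penk was lower in both mutants than in wild type. It fell by 1.23 in fosB-null (SE 0.17; 2.35-fold lower; limma adjusted p = 0.00156), which is -1.03 relative to a median gene at -0.20, and the arrays did not overlap. It was the 1 of 8 members called lower, where 1.04% of all genes were, and 0 were called higher. With replicate number as a block, which paired the arrays in this comparison, Pnoc was called lower as well (2 of 8 members). That fit called 1969 of all 19938 genes lower, against 208 without the block. In fosB d/d, Penk fell by 0.76 (SE 0.17; 1.69-fold lower; adjusted p = 0.0269), or -0.54 relative to a median of -0.22. Penk and Pnoc were the 2 of 8 members called lower there, where 1.96% of all genes were, and 0 were called higher. Both comparisons share the wild type KA arrays.

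Genotype and array set are mixed in these comparisons, since replicates 2 and 3 after KA lie in set 2 for wild type and in set 3 for the mutants. In the 1 pair of arrays from set 1, Penk differed from wild type by -1.14 in fosB-null and, with a smaller difference than over all arrays, by -0.44 in fosB d/d (1 array a group, so with no test). Some marker genes of other cells were called lower after KA in the mutants too. Cd68 and C1qa, 2 of 8 microglia markers, were called lower in fosB-null (-0.61 and -0.51; -0.41 and -0.31 relative to the median gene) and for fosB d/d as well (-0.67 and -0.52; -0.45 and -0.30). In fosB-null the dopamine receptor genes Drd1 (-0.61; -0.40 relative to the median) and Drd2 (-0.52; -0.31), 2 of 7 striatal markers, were called lower. Lct, a granule cell marker and 1 of 13 hippocampal neuron markers, was called higher there (0.76; 0.97). In fosB d/d Cga, a pituitary gene and 1 of 10 hypothalamus and pituitary markers, was called lower (-0.95; -0.73). Of these calls, that of Lct alone was also made with quantile normalization. The mean of the striatal list minus the array median was 0.54 to 0.70 in wild type after KA, 0.62 to 0.65 in fosB-null and 0.61 to 0.85 in fosB d/d. For microglia, in the same order, it was 0.70 to 0.90, 0.59 to 0.73 and 0.49 to 0.70. For hippocampal neurons it was 1.67 to 1.80, 1.95 to 2.14 and 1.93 to 2.06, so higher in both mutants. The part of these cells in the Penk differences was not tested.

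The fosB d/d call depended on the processing. As deposited, its KA arrays lay below those of wild type, but after each array's median was subtracted the Penk values overlapped. With quantile normalization the Penk change was -0.62 (adjusted p = 0.116) and 0 members were called. The call was also lost without wild type KA replicate 2 (-0.76, adjusted p = 0.0862) or replicate 3 (-0.80, 0.0881), and without fosB d/d KA replicate 2 (-0.72, 0.0964) or replicate 3 (-0.58, 0.112).

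After saline, Penk was lowest in fosB-null (10.39 ± 0.10, SD, n = 3), against 10.82 ± 0.17 in wild type and 11.02 ± 0.15 in fosB d/d. The fosB-null arrays lay below those of both other genotypes as deposited, and overlapped with wild type once array medians were subtracted. The difference was -0.44 from wild type (SE 0.17; limma adjusted p = 0.987) and -0.63 from fosB d/d (SE 0.17; unadjusted p = 0.00142, adjusted p = 0.805), and neither passed. With quantile normalization and array set as a block, the difference from fosB d/d was called. After KA the 2 mutants differed by -0.48 (fosB-null minus fosB d/d, SE 0.17; adjusted p = 1) and their arrays overlapped.

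Across all 10 groups the order of Penk means as deposited ran from wild type KA (11.73) over fosB d/d saline (11.02), aged fosB d/d (11.01), fosB d/d KA (10.98), wild type saline (10.82), aged wild type (10.74), aged fosB-null with epilepsy (10.72), fosB-null KA (10.50) and fosB-null saline (10.39) to aged fosB-null without epilepsy (10.12). Between neighbours in that order the arrays were apart at the top step and at the last one, and overlapped at every other step. After subtraction of array medians the order changed in the middle, and the top step alone stayed apart. That step is against aged fosB d/d, the next group. On that scale wild type KA overlapped with fosB d/d KA and with aged fosB-null with epilepsy. The genes whose 10 group means ran most like those of Penk, among 2850 genes with a range over 0.5, were Rprm (Pearson r 0.96), Ppl (0.91), Plat (0.89), Serpinb8 (0.89) and Acvr1c (0.86). These are descriptions over 10 means of groups that share array sets, and they depend on the choice of genes by range.

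Pnoc, the nociceptin precursor, had the next largest KA change in wild type. It read 8.93, 8.81 and 9.02 after saline and 9.16, 9.38 and 9.31 after KA. The groups did not overlap, and the 3 KA arrays again lay above the other 15 young arrays (highest 9.09). The change was 0.36 (SE 0.11, 95% interval 0.14 to 0.59), and its limma adjusted p of 0.0887 did not pass. It passed with quantile normalization (0.38, adjusted p = 0.0134). In the mutants the Pnoc change was -0.15 in fosB-null (0.02 relative to the median gene) and -0.13 in fosB d/d (0.04 relative to it), with overlapping arrays in each.

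Pnoc after KA was 8.84, 8.83 and 8.89 in fosB-null and 8.87, 8.73 and 8.72 in fosB d/d, all below the wild type KA arrays. The fosB-null difference was -0.43 (SE 0.11; limma adjusted p = 0.0609; -0.22 relative to the median). In fosB d/d Pnoc fell by 0.51 (SE 0.11; 1.42-fold lower; adjusted p = 0.0208), or -0.29 relative to the median. That call was lost with quantile normalization (-0.32, adjusted p = 0.118) and without wild type KA replicate 2 or 3 or fosB d/d KA replicate 2 or 3 (adjusted p 0.0767 to 0.117). The differences in KA response were -0.52 (adjusted p = 0.155; -0.34 relative to the median gene) for fosB-null and -0.49 (adjusted p = 0.371; -0.32 relative to it) for fosB d/d.

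Pdyn, the dynorphin precursor, had lower means after KA in every genotype, with no call. Wild type arrays read 7.88, 8.34 and 8.45 after saline and 7.49, 8.19 and 8.20 after KA, and overlapped. In fosB-null they read 8.23, 8.38 and 8.48 after saline and 7.86, 7.90 and 7.68 after KA, and did not overlap. The fosB d/d arrays read 7.77, 8.24 and 8.34, then 7.72, 7.71 and 7.94. The changes were -0.26 (SE 0.19; limma adjusted p = 0.624), -0.55 (SE 0.19; adjusted p = 0.218; -0.37 relative to the median gene) and -0.32 (SE 0.19; adjusted p = 0.359; -0.15 relative to it). Within set 1, Pdyn was 0.39 lower after KA in wild type, 0.37 lower in fosB-null and 0.05 lower in fosB d/d, from 1 array each. With quantile normalization and array set as a block, Pdyn and Pomc were called for KA in wild type too. That fit called 1647 of all 19938 genes higher and 1853 lower, against 323 and 187 as fitted without it.

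The Pdyn group means spanned 0.55 after array medians were subtracted, and the genes running most like them were Clec4a3 (r 0.96), Rerg (0.94), Pcdh20 (0.94), Rasd1 (0.94) and Nr4a3 (0.93, an immediate early transcription factor), over the same 10 means. Pomc lay between 7.07 and 7.94 over the 28 arrays. It read 7.46, 7.44 and 7.63 in wild type after saline and 7.53, 7.94 and 7.85 after KA, with overlap. The change was 0.26 (SE 0.13; limma adjusted p = 0.397), against -0.12 for fosB-null and -0.17 for fosB d/d (0.05 and 0.0 relative to the median gene). Once array medians were subtracted the wild type KA values lay above those of saline. No Pomc comparison passed. Pomc is best known from the hypothalamus and pituitary, and the mean of 10 markers of these tissues minus the array median was -1.15 to -0.69 on the wild type KA arrays and -1.18 to -0.90 on those of saline.

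**Figure D2:**
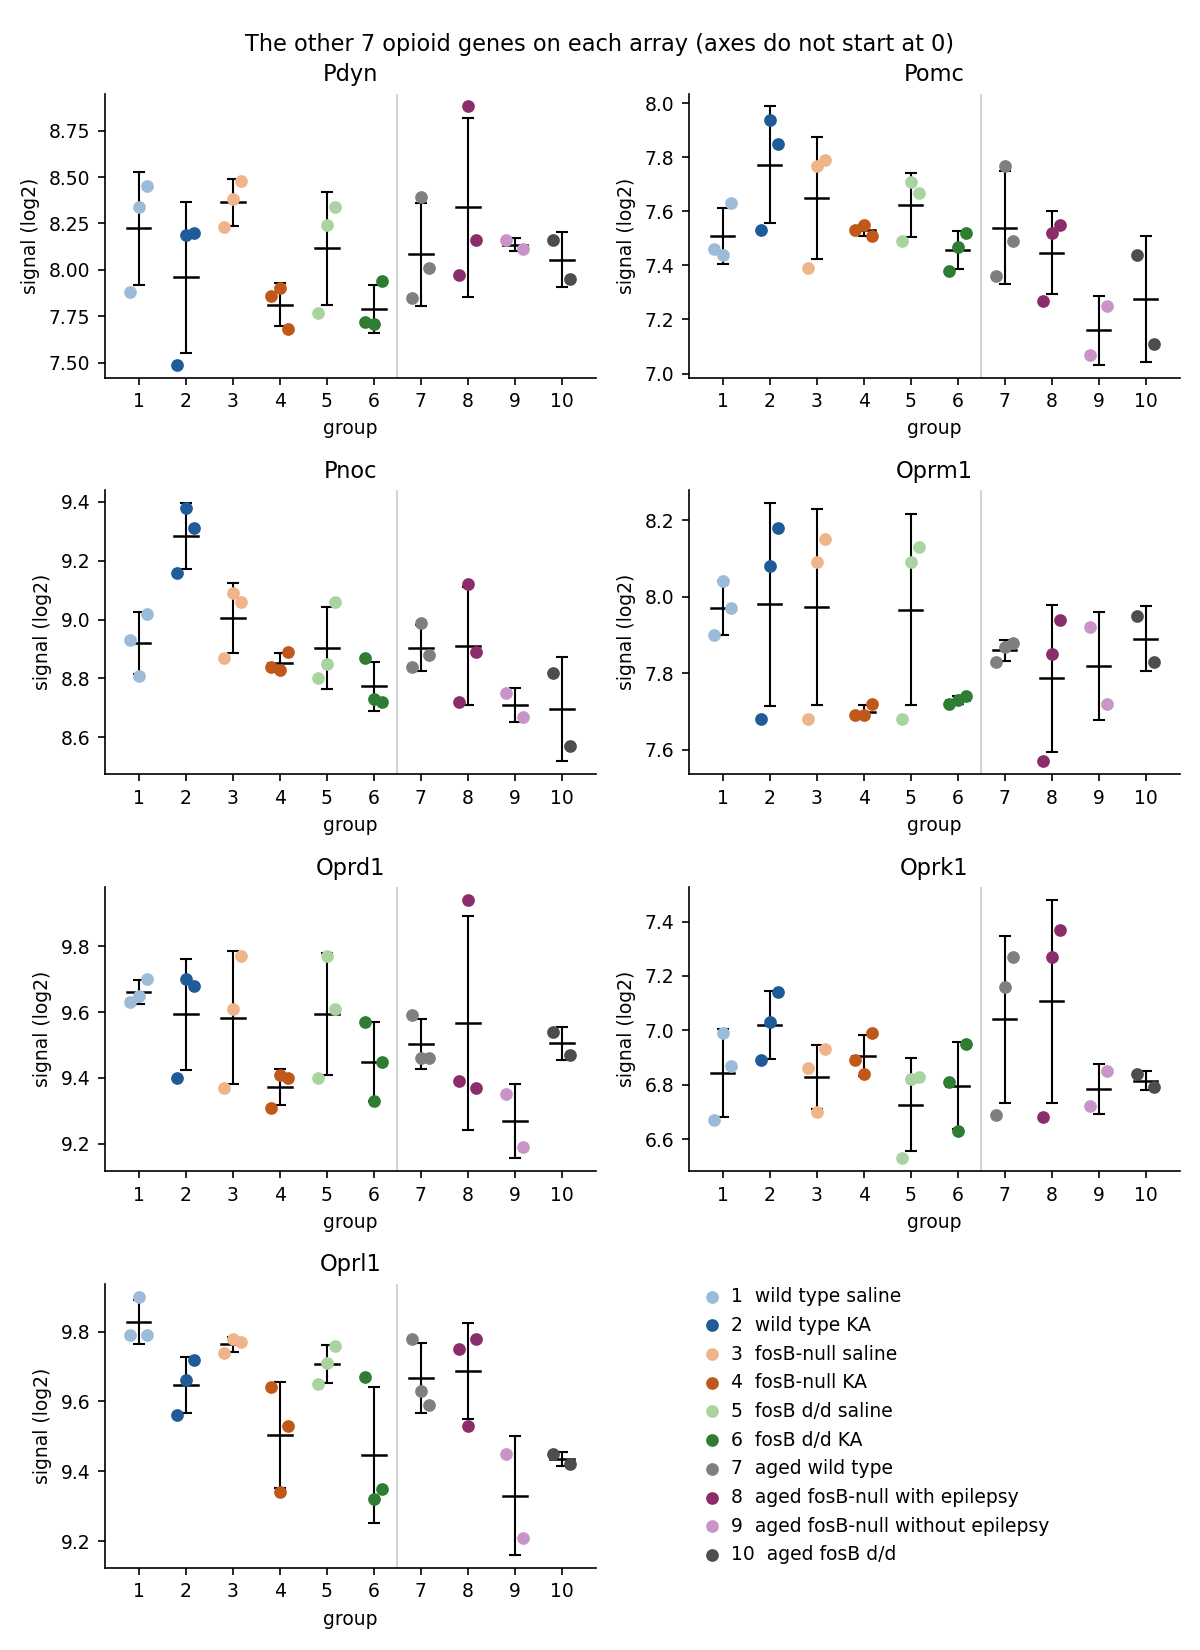
Signal (log2, as deposited) of the other 7 opioid genes on each array, with groups numbered as in the key; points are arrays, lines means and bars SD, and each panel has its own axis. In the Pnoc panel the wild type KA arrays (9.16 to 9.38) stand above all other young arrays, and the receptor panels show overlap in most groups.

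Among the receptors, 0 of 4 passed in any of the 16 comparisons as fitted. Oprm1, the mu receptor on which beta-endorphin and enkephalins act, read 7.90, 8.04 and 7.97 in wild type after saline and 7.68, 8.08 and 8.18 after KA. The change was 0.01 (SE 0.15, 95% interval -0.30 to 0.32). In fosB-null it read 7.68, 8.09 and 8.15 after saline and 7.69, 7.69 and 7.72 after KA, and in fosB d/d 7.68, 8.09 and 8.13, then 7.72, 7.73 and 7.74. The low arrays of each mutant are replicate 1 after saline and all 3 after KA, which are those of sets 1 and 3. The changes of -0.28 and -0.24 shrank to -0.10 and -0.07 relative to the median gene, and array set and KA cannot be told apart in replicates 2 and 3.

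Oprd1, the delta receptor that enkephalins favour, changed with KA by -0.07 in wild type (SE 0.13, 95% interval -0.33 to 0.20), -0.21 for fosB-null and -0.14 for fosB d/d, or -0.03 and 0.03 relative to the median gene in the mutants. Oprk1, the kappa receptor for dynorphin, had the lowest signal of the 4 probe sets, which says nothing of its level against theirs. Its change was 0.18 in wild type (SE 0.12, interval -0.08 to 0.44), and 0.07 in each mutant. Relative to the median gene the mutant values were 0.25 and 0.24. As deposited, without that shift, the intervals for both receptors span 0. Once array medians were subtracted, the Oprk1 KA arrays lay above those of saline in wild type and fosB d/d, and overlapped in fosB-null.

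Oprl1, the nociceptin receptor, had lower means after KA in all genotypes. Its wild type arrays read 9.79, 9.90 and 9.79 after saline and 9.56, 9.66 and 9.72 after KA, with no overlap as deposited and with overlap once array medians were subtracted. The change was -0.19 (SE 0.11; limma adjusted p = 0.513). In both mutants it was -0.26 (SE 0.11; adjusted p = 0.257 and 0.255), or -0.09 relative to the median gene. For KA in each mutant, fosB-null first and fosB d/d second, 0 of 8 members were called, where 0.0752% and 0.0301% of all genes were. At an unadjusted p under 0.05 there were 2 and 1 members, where 17.7% and 17.2% of all genes were, so these counts are near the background.

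**Figure D3:**
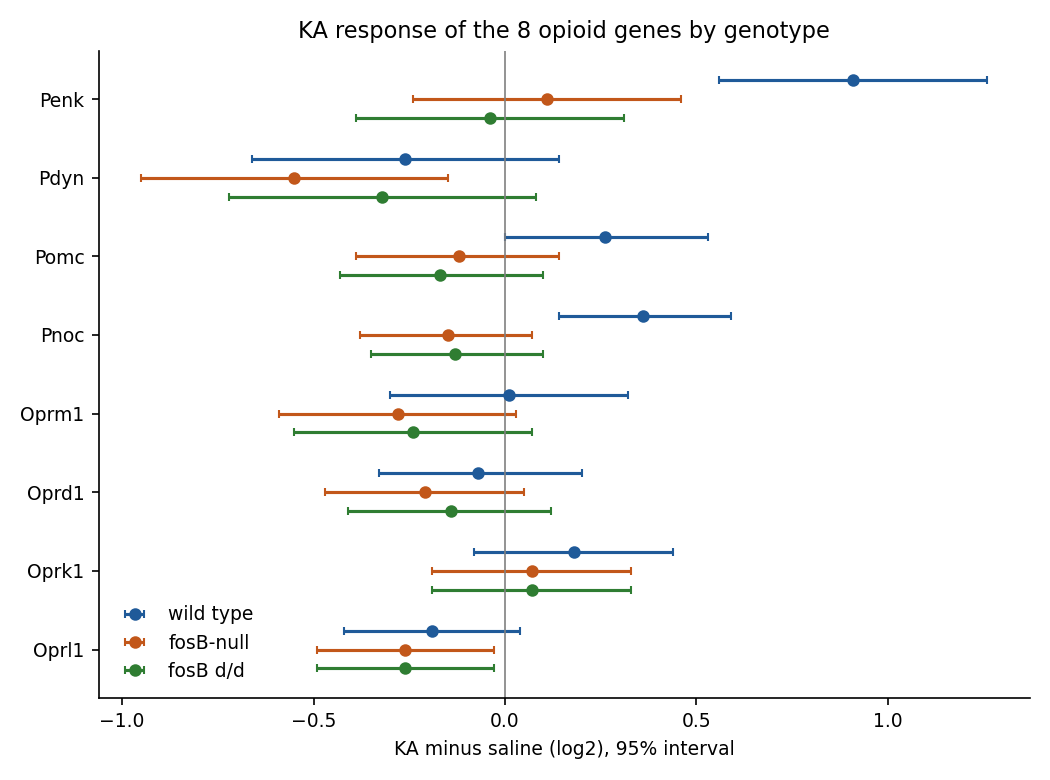
Change after KA (KA minus saline, log2) of the 8 opioid genes in the 3 genotypes; points are limma estimates from 3 arrays against 3 and bars 95% intervals, not adjusted for the median gene of -0.17 in the mutants. Penk in wild type (0.91) is apart from 0, and its mutant values are 0.11 and -0.04. The bars also exclude 0, with no call, for Pnoc in wild type (0.14 to 0.59) and Pdyn in fosB-null (-0.95 to -0.15). So do those of Oprl1 in both mutants (-0.49 to -0.03). The differences in Penk response between genotypes did not pass (limma adjusted p = 0.155 for fosB-null and 0.247 for fosB d/d).

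Between genotypes after saline, 0 of 8 members were called in any pair. The share of all genes called was 0.00502% for fosB-null against wild type and 0.0% for both pairs with fosB d/d. At an unadjusted p under 0.05 in limma there was 1 member (Penk) for fosB-null against wild type, where 4.74% of all genes were, 0 for fosB d/d against wild type (0.813%) and 1 (Penk) for fosB-null against fosB d/d (3.03%). For fosB-null against fosB d/d after KA 0 of 8 members were called, where 0.0% of all genes were, and 1 (Penk) had an unadjusted p under 0.05, where 0.707% of all genes did.

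In the aged mice the fosB-null arrays with epilepsy read 10.42, 11.44 and 10.30 for Penk. Those without epilepsy read 10.11 and 10.13, those of fosB d/d 11.06 and 10.97 and those of wild type 10.80, 10.79 and 10.63. The high array of the epilepsy group, replicate 2, was also the highest of the 28 for Pdyn (8.88) and Oprd1 (9.94). Penk with against without epilepsy differed by 0.60 (SE 0.27; limma adjusted p = 0.226; 0.45 relative to the median gene), and the groups did not overlap as deposited but did once medians were subtracted. Epilepsy against wild type gave -0.02 (SE 0.25; adjusted p = 1), and fosB-null without epilepsy against wild type -0.62 (SE 0.27; adjusted p = 0.215; -0.48 relative to the median). Without replicate 2 of the epilepsy group, its difference was 0.24 from the group without epilepsy (adjusted p = 0.266) and -0.38 from wild type (adjusted p = 0.31). The fosB d/d difference from wild type was 0.28 (SE 0.27; adjusted p = 0.561; 0.41 relative to it).

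Choroid plexus markers ran opposite to Penk in these mice. The mean of 8 choroid plexus marker genes, minus the array median, was 2.10 and 2.09 on the epilepsy arrays that read 10.42 and 10.30 for Penk, and 0.05 on replicate 2, which read 11.44. It was 1.72 and 2.23 without epilepsy, -0.29 on both fosB d/d arrays and -0.33 to 0.25 in aged wild type. The 4 aged arrays with the highest choroid plexus values are thus the 4 with the lowest Penk, and the part of this tissue in the Penk differences was not tested. In young mice, wild type KA arrays held 1.08 to 2.14 with Penk at 11.64 to 11.84, and wild type saline arrays 0.60, -0.15 and 2.01 with Penk at 11.01, 10.81 and 10.66.

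The other members showed smaller ranges. Over the 10 arrays Pdyn ran from 7.85 to 8.88, Oprd1 from 9.19 to 9.94, Pomc from 7.07 to 7.77 and Oprk1 from 6.68 to 7.37. Pnoc ran from 8.57 to 9.12 and Oprm1 from 7.57 to 7.95. Oprl1 was lower without epilepsy (9.45 and 9.21) than with it (9.75, 9.53 and 9.78), with no overlap as deposited and with overlap once medians were subtracted, by 0.36 (SE 0.11; limma adjusted p = 0.135; 0.21 relative to the median gene). Of the 8 members, 0 were called in any aged comparison. The share of all genes called was 0.0% for epilepsy against wild type, 0.115% for fosB-null without epilepsy against wild type, 0.0602% for with against without epilepsy and 0.0552% for fosB d/d against wild type. At an unadjusted p under 0.05 the members numbered 0, 3, 1 and 0 in that order, where 3.09%, 22.9%, 22.5% and 22.3% of all genes were. Aged against young wild type saline gave 0 of 8 called, where 0.11% of all genes were, and 0 at an unadjusted p under 0.05, where 18.8% were. Penk differed there by -0.09 (SE 0.21; 0.08 relative to the median gene).

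Some precursors of other, non-opioid neuropeptides were also called after KA. Of 25 other neuropeptide precursors measured (27 listed), 4 rose after KA in wild type and 0 fell, where 1.62% and 0.938% of all genes did, with a list median of 0.12 against 0.01 for all genes. Trh, the thyrotropin-releasing hormone precursor, rose by 2.25 (SE 0.40; limma adjusted p = 0.00376), and Gal, the galanin precursor, by 1.87 (SE 0.11; adjusted p = 5.9e-08). Npy, neuropeptide Y, rose by 0.76 (SE 0.15; adjusted p = 0.00569) and Vgf, a secreted granule protein, by 0.41 (SE 0.10; adjusted p = 0.0395). With quantile normalization 6 rose and 2 fell. In each mutant 0 of 25 were called for KA as fitted, though Gal changed by 0.63 in fosB d/d (SE 0.11, limma adjusted p = 0.054). With quantile normalization 1 of the 25 was called higher in fosB d/d, where 47 of all genes were. After KA, 5 of the 25 were called lower in fosB-null against wild type (1.04% of all genes) and 4 in fosB d/d (1.96%), with 0 higher in either. Relative to the median gene, Gal differed by -1.29 and -0.98, Npy by -0.57 and -0.50, Vgf by -0.51 and -0.23 and Scg2 by -0.39 and -0.43. Trh (-1.64) was called in fosB-null alone. With quantile normalization 3 (Gal, Vgf and Npy) and 1 (Gal) were called lower. Gal was called for the difference in KA response of fosB-null (-1.87, adjusted p = 1.6e-05; -1.70 relative to the median gene) and of fosB d/d (-1.24, adjusted p = 0.00358; -1.07 relative to it). The call for fosB d/d was lost with quantile normalization (-1.0, adjusted p = 0.144).

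**Figure D4:**
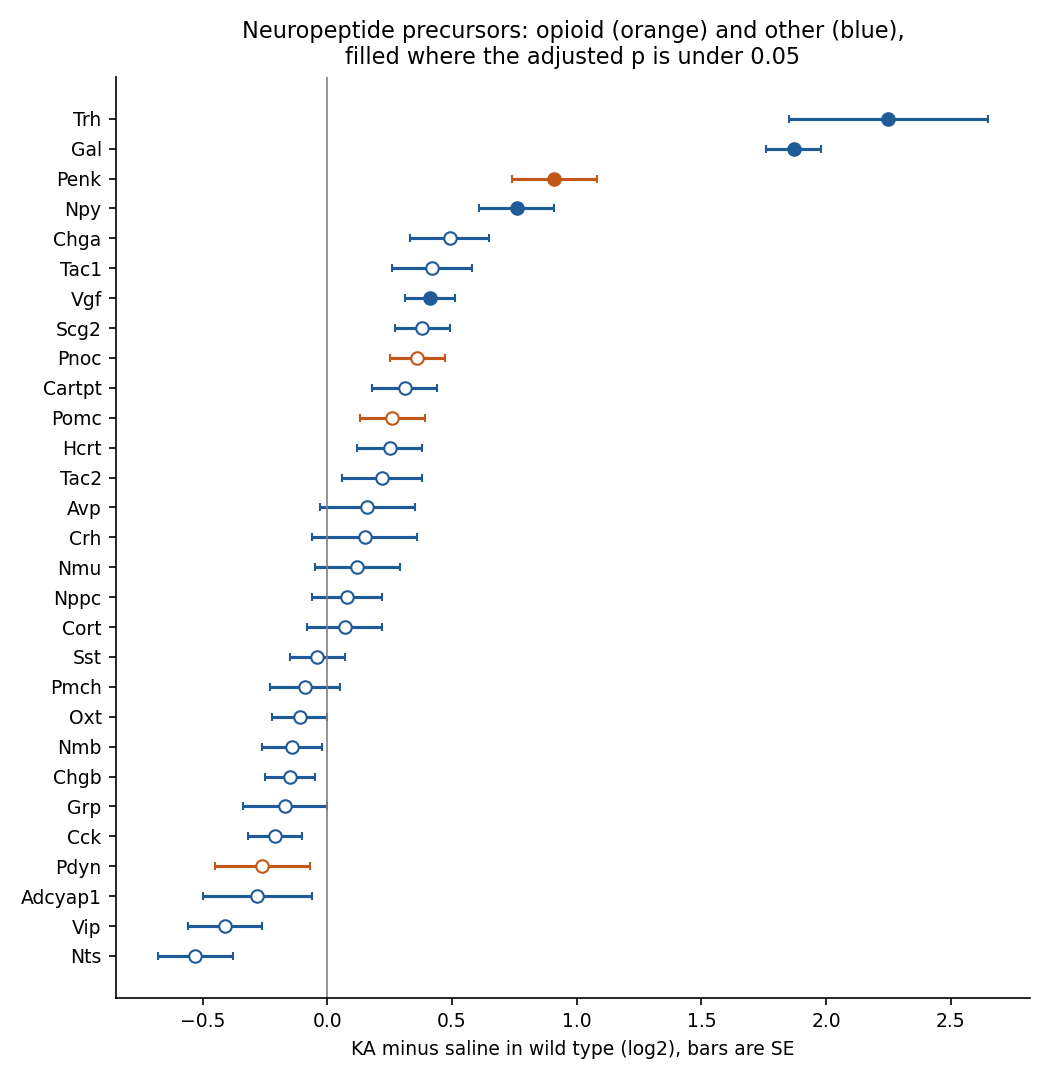
Change after KA in wild type (log2, KA minus saline) of 4 opioid precursors (orange) and 25 other neuropeptide precursors (blue), ordered by size; bars are SE, filled points have a limma adjusted p under 0.05. Penk (0.91) lies below Trh (2.25) and Gal (1.87), and Pdyn (-0.26) is among the lowest 4.

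Of 34 opioid receptor signalling genes measured (36 listed), 2 rose and 2 fell after KA in wild type, with a median of -0.05 against 0.01 for all genes, of which 1.62% rose and 0.938% fell. Rgs4 (0.88, SE 0.13; limma adjusted p = 5.1e-04) and Rgs20 (0.50, SE 0.12; adjusted p = 0.024), which end G protein signals, rose. Adcy8 (-0.75, SE 0.17; adjusted p = 0.0223) and Adcy1 (-0.50, SE 0.13; adjusted p = 0.0453), calcium-stimulated adenylyl cyclases, fell. After KA, 3 of the 34 were called lower in fosB-null against wild type (1.04% of all genes) and 2 were lower in fosB d/d (1.96%), with 0 higher in either. Rgs4 differed by -0.83 in fosB-null and by -0.84 in fosB d/d, which is -0.62 relative to the median gene in both. Rgs20 differed by -0.62 and -0.67 (-0.41 and -0.45 relative to it), and Rgs8 by -0.46 in fosB-null (-0.26 relative to it). The adjusted p values of these 5 calls were 0.00296 to 0.0444. With quantile normalization the fosB-null calls of Rgs20 (adjusted p = 0.0577) and Rgs8 (0.0967) were lost.

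Of 18 peptide processing and breakdown genes (20 listed) 0 passed for KA in wild type, Nln and Scg5 having the smallest p at 0.43 (adjusted p = 0.0765) and -0.35 (adjusted p = 0.166). Of 3 genes named for opioid binding outside the receptor family (4 listed) 0 passed, with Ogfrl1 at -0.27 and Ogfr at 0.23. With quantile normalization 1 gene rose and 1 fell in each of these lists: Nln (0.45, adjusted p = 0.0268) and Mme, an enkephalin-degrading peptidase (-0.55, adjusted p = 0.0311), and Ogfr (0.27, adjusted p = 0.0377) and Ogfrl1 (-0.22, adjusted p = 0.0456).

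Markers of other cell types moved with KA in wild type hippocampus. Of 8 astrocyte markers 2 rose (Gfap by 1.51, Vim by 1.39) and 2 fell (Gja1, -1.02, and S100b, -0.44), and of 8 microglia markers 1 rose (Cd68, 0.67). Among all genes 1.62% were called higher and 0.938% lower. Of 13 hippocampal neuron markers 2 fell (Tdo2, -1.64, and Lct, -1.0), and the list's mean minus the array median was 1.67 to 1.80 after KA against 2.06 to 2.14 after saline. The 12 interneuron markers had 0 called and means of 1.34 to 1.43 after KA against 1.44 to 1.59. Striatal tissue is rich in enkephalin; the mean of 7 striatal markers was 0.54 to 0.70 after KA and 0.57 to 0.67 after saline, with 0 called higher and Gpr6 lower (-0.51). Within that list Drd2 read 9.28 to 9.59 after KA and 9.02 to 9.10 after saline, with no overlap. Thalamus markers had means of 0.48 to 0.74 after KA against 0.89 to 0.98, and choroid plexus markers 1.08 to 2.14 against -0.15 to 2.01. The part of cell content in the Penk change was not tested.

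Promoter windows of RefSeq (GRCm38.p6, 250 bases before to 50 after a start) were found for 5 of the 8 members, 10 windows in all. None holds the AP-1 motif TGACTCA (5.2% of 32851 windows do, either strand) or the cyclic AMP response motif TGACGTCA (1.79%). No window was available for Penk, Pnoc and Oprk1, so the members called above are not covered. At these shares 10 windows would hold few or none by background alone, so nothing is concluded from their absence.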

How the data were processed

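RNA (100 ng a sample) was measured on 28 arrays. The deposited values are log2 signals of 35557 probe sets, made by the authors with Affymetrix Expression Console, per the submitters' processing notes; the sources used here do not give its normalization. Probe sets with 1 symbol were kept, the brightest for each of 19938 genes. Limma 3.58.1 in R 4.3.3 compared group means in fits of the 18 young, 10 aged or all 28 arrays, with Benjamini-Hochberg adjustment over all genes and calls at an adjusted p under 0.05; every adjusted p is limma's. The scripts were tested on simulated data. Arrays carry no depth, so their number limits precision. Members and lists were chosen with earlier results of these data known.

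All 8 members are named with their values. Of pathway lists, the called genes, or the 2 of smallest p after KA in wild type, are named, and for likeness the 5 genes of highest r, without predicted loci, small RNAs, olfactory receptors and immunoglobulin segments. Marker genes named were chosen as those called. The array sets were formed from replicate number and level.

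Replicate numbers recur in the labels. Deviations of same-numbered arrays correlated above 0.1 in every pair, which was taken as pairing, for 6 comparisons. These were the KA response of fosB-null (0.18 to 0.37) and of fosB d/d (0.29 to 0.34), fosB-null compared with wild type after KA (0.35 to 0.42), after saline fosB d/d compared with wild type (0.41 to 0.78) and with fosB-null (0.22 to 0.31), and the aged epilepsy group compared with wild type (0.20 to 0.47). Alternatives were other normalizations, blocks, fits, weights and filters, age as a covariate, and each array left out.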

Additional observations from a re-analysis of the deposited data

How the results depend on the processing

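Over 16 counts of called members, 231 of 264 alternatives gave the same count or one within 1.5 times that reported, 25 gave more and 8 fewer. Most of the reported counts are 0, so this share is mainly that of 0 staying 0 and is no measure of how stable the calls are. None of 109 alternatives for the 6 changes of single members reversed. Penk was called for KA in wild type in 17 of 17 alternatives (0.83 to 1.04) and for fosB-null against wild type after KA in 16 of 16 (-1.33 to -1.02).

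For KA in wild type, where 1 member was called, quantile normalization, median subtraction and the replicate block each called 2, array weights 3 and quantile normalization with array set as a block 4; each array left out gave 1 to 1. For fosB-null against wild type after KA (1 called) the replicate block, all 28 arrays in 1 fit and the filter of the dimmest 30 percent called 2, array weights 7, and leaving out arrays 1 to 3. For fosB d/d against wild type after KA (2 called), quantile normalization, median subtraction and a fit of only the groups compared called 0, the array set block 1, array weights 8, and leaving out arrays 0 to 3.

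Where 0 were called, the replicate block called 1 (Penk) for the difference in KA response of either mutant, whose numbers are not shown to pair arrays, and the array set block 1. Leaving out wild type KA replicate 1 called 1 (Pnoc) for the fosB-null difference (0 to 1 over all left out). The array set block called 1 for fosB-null against fosB d/d saline. For fosB d/d against wild type after KA the replicate block also called Pomc (3 members), and in the 11 comparisons not named here with that block it left the count as it was.

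Array weights called 7 for KA in each mutant, 5 and 6 for the differences in KA response, 1 for fosB-null against fosB d/d saline and 2 after KA, and 3 in both comparisons of aged fosB-null without epilepsy; with them 13778 of all genes were called for KA in fosB-null, against 15 without. The cause of these shifts was not tested. The number of arrays, 2 or 3 a group, limits the precision of every value.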
